A study of Mus musculus with 4 samples.

Results

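BRG1/BRM occupancy was described at the 10 genes of 3 families of interacting cell-surface proteins, the teneurins (Tenm1 to Tenm4), the latrophilins (Adgrl1 to Adgrl3) and the FLRT proteins (Flrt1 to Flrt3). The genes were taken by name from 21887 protein-coding genes of mouse, and every enriched region, called an island, that touched a member gene or the 10 kb to either side of it was counted. This gave 83 of 20966 islands in depolarized neurons and 3 of 711 islands in basal neurons. The libraries came from wild-type mouse cortical neurons, dissected at E16.5 and grown in culture for 6 days. Depolarized cultures (KCl) were held in 50 mM KCl for 1 h, after tetrodotoxin (1 µM) and APV (100 µM) had been given on day 5 to silence spontaneous firing. Basal cultures stayed at the basal level of KCl, and the labels do not say whether they received the blockers. ChIP-seq used the J1 antibody, raised against BRG1/BRM. BAF complexes carry either BRG1 or BRM as their ATPase, and the signal does not tell them apart. Each condition had 1 IP and 1 input library, so differences between conditions could not be set against replicates and were not tested. The input libraries enter only as the control reads of the islands.

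Teneurins are very large transmembrane proteins whose extracellular parts bind latrophilins on the opposing cell. Latrophilins are adhesion G protein-coupled receptors, named after the receptor of the black widow toxin latrotoxin, and sit at synapses. FLRT proteins carry leucine-rich repeats, bind latrophilins, and also bind the netrin receptors of the Unc5 family, through which they steer migrating cortical neurons and growing axons. The BAF complex moves nucleosomes, and its presence on a gene does not by itself say whether the gene is transcribed.

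All 10 members had a BRG1/BRM island after depolarization, and 3 of them, Tenm2, Tenm3 and Adgrl3, had an island in basal neurons. Among all protein-coding genes, 38.9% had a KCl island in the gene or within 10 kb and 1.68% had a basal island. Gene length moved strongly with these shares. A KCl island was found at 98.7% of the 227 genes over 500 kb, at 80.3% of genes of 100 to 500 kb and at 33.5% of genes under 100 kb. The 5 longest members (Tenm1 to Tenm4 and Adgrl3) are over 500 kb, so their having a KCl island is what most genes of that length showed. Basal islands were found at 3 of these 5 members, against 22.9% of genes over 500 kb. The part of length in these counts was not tested.

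The families' share of each list was about equal. Member islands made up 0.396% [0.315 to 0.491] of the KCl list and 0.422% [0.0871 to 1.23] of the basal list, where brackets here and below hold 95% exact intervals that cover counting error only. With the KCl list limited to 711 islands, the length of the basal list, 3 member islands were left under ranking by the authors' p-value (1 in Tenm3 and 2 in Adgrl3) and 2 under ranking by fold (1 each in Tenm2 and Tenm3), against 3 in the basal list. At equal list length, then, the members held about as many KCl as basal islands, and 0 KCl islands at their starts under either ranking. Absence of a call does not show absence of binding.

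**Figure D1:**
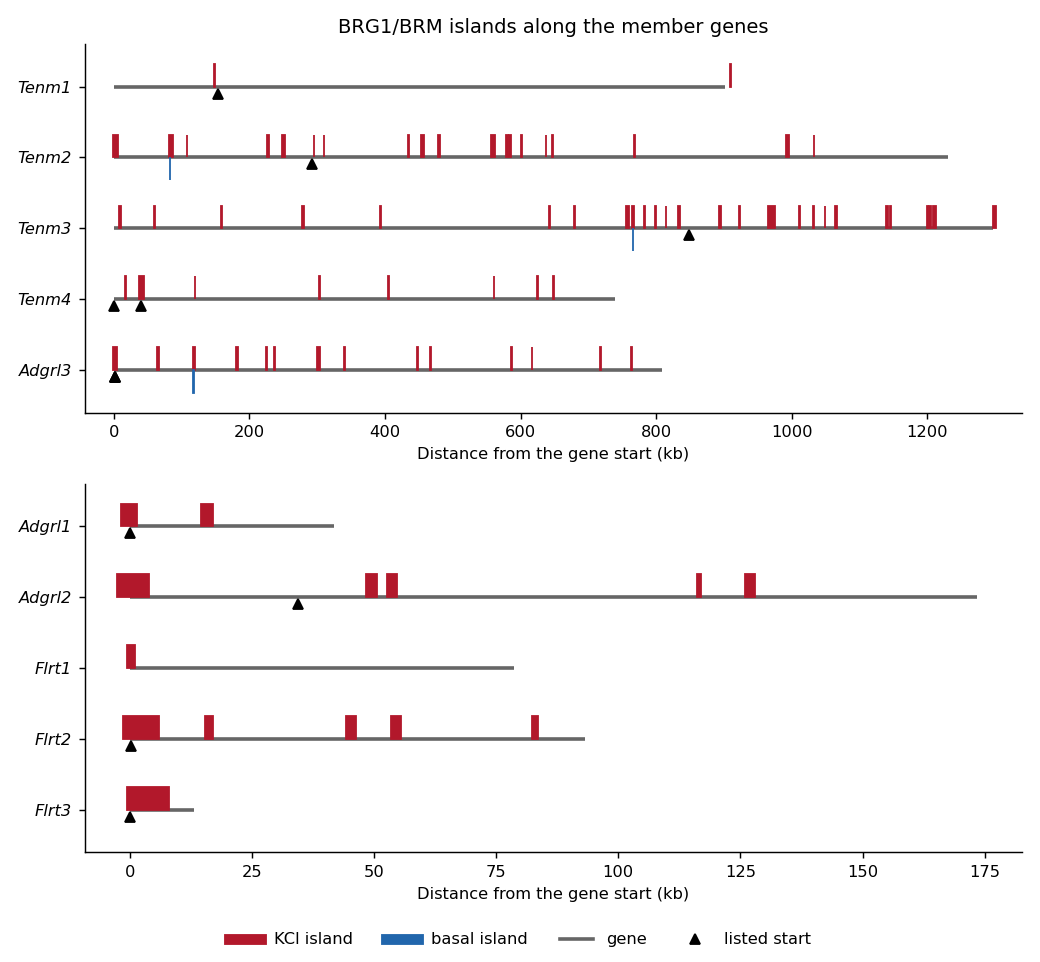
Position of each island along the 10 genes, as distance from the gene start in kb, with KCl islands in red above the gene line and basal islands in blue below it. Rectangles are drawn to scale, with an outline that widens the narrowest, and triangles mark the starts listed by RefSeq. The 19 KCl islands of Tenm2 lie mostly in the part nearer its start and the 26 of Tenm3 mostly in the part nearer its end, and each of the 3 basal islands lies under a KCl island. Flrt1 is drawn from its higher-coordinate end.

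The teneurins, the ligand side of the pair, held 55 of the 83 KCl islands, and 2 basal islands. Tenm3 encodes a teneurin that guides the wiring of visual and hippocampal circuits. Its gene spans 1297 kb (chr8:48225665-49522824, minus strand) and carried 26 KCl islands [17.0 to 38.1] and 1 basal island. This is 1.97 KCl islands per 100 kb of gene plus flanks [1.29 to 2.89], above 90.3% of genes over 500 kb (median 0.994). By number of KCl islands Tenm3 ranked 7 of 227 in this class, and by density 22. Tenm2, which encodes a presynaptic or postsynaptic partner of latrophilin 1, spans 1230 kb (chr11:36006656-37237053, minus strand). It carried 19 KCl islands and 1 basal island. Its KCl density was 1.52 per 100 kb [0.915 to 2.37], above 76.2% of the class. Tenm4, whose product is needed for myelination of small axons, spans 740 kb (chr7:96171244-96911093, plus strand) and carried 8 KCl islands and 0 basal islands. Its density of 1.05 per 100 kb [0.455 to 2.07] lay near the class median.

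Tenm1 was the sparsest member. The gene covers 901 kb of the X chromosome (chrX:42527866-43429168, minus strand), and 1 KCl island lay in its body (chrX:43280201-43281000, 44 IP reads and 12 control reads, 2.30-fold [1.20 to 4.79]). A second (chrX:42518201-42520600, 3.24-fold [1.77 to 6.39]) lay 7.27 kb past its end. That island is wholly within the neighbouring gene Sh2d1a and counts for Tenm1 only through the flank. The Tenm1 density of 0.217 per 100 kb [0.0263 to 0.784], which includes it, was above that of 5.29% of genes over 500 kb. The X chromosome as a whole held few islands, 227 of 20966 in KCl (1.08%) and 17 of 711 in basal, a larger share than in KCl. The 11 genes over 500 kb on the X had a median KCl density of 0.272, against 1.04 for the 216 on autosomes, and 4 of the 11 were below Tenm1. The sex of the embryos is not given, and the part of X dosage in these values was not tested.

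Of the latrophilins, the receptor side, Adgrl3 had the most islands. Its product binds both teneurins and FLRT3, and the human gene has been linked to attention deficit hyperactivity disorder. The gene spans 809 kb (chr5:81019085-81827825, plus strand) and carried 14 KCl islands and 1 basal island, a KCl density of 1.69 per 100 kb [0.924 to 2.83] that was above 82.4% of genes over 500 kb. Adgrl2, a latrophilin of hippocampal synapses, spans 174 kb (chr3:148815586-148989096, minus strand) and carried 5 KCl islands and 0 basal islands. At 2.58 per 100 kb [0.839 to 6.03] it was above 92.6% of genes of 100 to 500 kb. Adgrl1, the latrotoxin receptor gene, is compact at 41.9 kb (chr8:83900098-83941954, plus strand), with 2 KCl islands and 0 basal islands.

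The FLRT genes are all under 100 kb and had 7 KCl islands and 0 basal islands. Flrt2, whose product repels cells that carry Unc5 receptors, spans 93.2 kb (chr12:95692006-95785215, plus strand). With 5 KCl islands it had the highest density of the members, 4.42 per 100 kb [1.43 to 10.3], above 94.4% of genes under 100 kb. Flrt3, a ligand of latrophilins that also takes part in axon guidance with Robo1, spans 13.3 kb (chr2:140658198-140671476, minus strand). Its 1 KCl island, 8600 bp wide, covered 60.8% of the gene. Flrt1, the least studied of the 3, spans 78.7 kb (chr19:7087464-7166183) and had 1 KCl island, at its higher-coordinate end. Flrt1 lies within Macrod1 and Flrt3 within Macrod2, so these islands lie in both genes of each pair.

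In order of density the members ran Flrt2, Adgrl1 (3.23), Flrt3 (3.00), Adgrl2, Tenm3, Adgrl3, Tenm2, Tenm4, Flrt1 (1.01) and Tenm1. Each member's interval overlapped those of its neighbours in this order. The upper limit of Tenm1, 0.784, lay below the lower limits of Tenm3, Tenm2, Adgrl3, Adgrl2 and Flrt2 but not of Flrt1, Adgrl1, Flrt3 or Tenm4. By family, density was 1.29 for teneurins [0.975 to 1.68], 1.94 for latrophilins [1.20 to 2.96] and 2.85 for FLRT genes [1.15 to 5.88], with overlapping intervals. Over all members it was 1.49 in KCl [1.19 to 1.84] and 0.0538 in basal neurons [0.0111 to 0.157]. Pooled over all genes of a class, the KCl density was 1.10 for genes over 500 kb, 1.13 for 100 to 500 kb and 1.05 under 100 kb. The genes under 100 kb nearest to Flrt2 in KCl density were Cebpa and Oaz1, each with 1 island, and Nap1l1 with 2, all at 4.42 per 100 kb. These are likenesses in density alone, since 1 island on a gene of 2.64 kb gives that value.

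**Figure D2:**
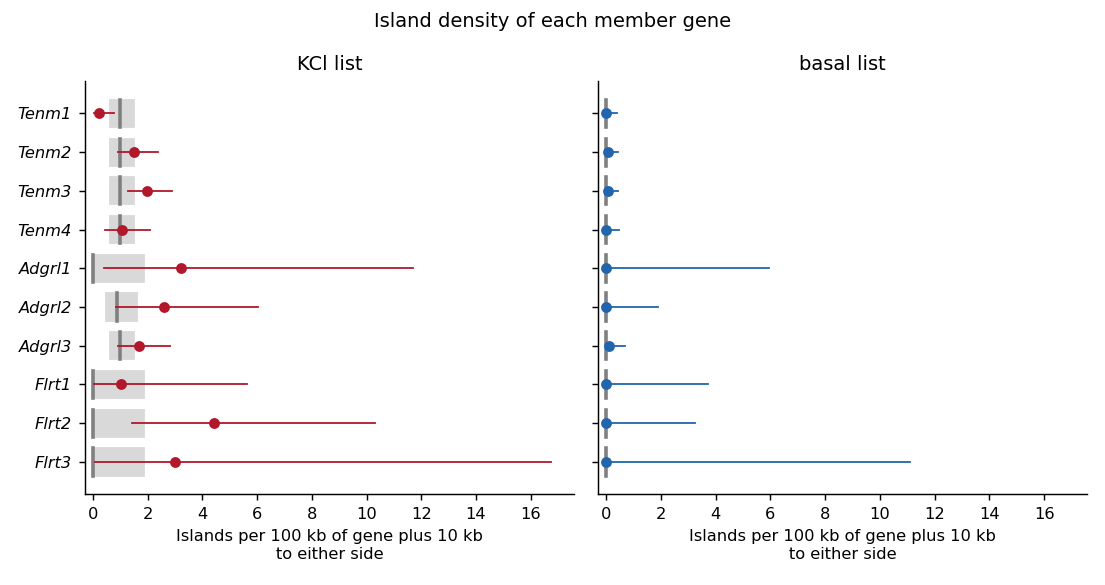
Islands per 100 kb of gene plus flanks for each member (points, with 95% exact Poisson intervals as lines), KCl list on the left and basal list on the right, on 1 scale. Grey boxes and ticks give the middle range and median of all protein-coding genes of the same length class. Tenm1 is the only member whose KCl point lies below its class box, and 7 members are at 0 in the basal list.

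The start of the gene, taken as the outer 5′ end of its RefSeq extent, was occupied in KCl at 7 of the 10 members and in basal neurons at 0. A KCl island within 2 kb of the start was found at 23.3% of all protein-coding genes and at 53.7% of those over 500 kb, and a basal island at 0.302% of all. The members with such an island were Tenm2, Adgrl1, Adgrl2, Adgrl3, Flrt1, Flrt2 and Flrt3. Either end was allowed for Flrt1, for which no strand was at hand, and likewise in the background for all but the 17492 genes with a strand. Tenm1, Tenm3 and Tenm4 had none, so of the members over 500 kb only Tenm2 and Adgrl3 had a start island. The other members with one are shorter, and no share was taken for genes of those lengths. The nearest KCl island to the start of Tenm3 was 8.22 kb inside the gene and also lay in the noncoding gene 4930555F03Rik. Its counterpart in Tenm4 was 16.4 kb inside.

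Islands at starts were broad and of modest fold. Flrt3 had the widest, with 264 IP reads and 109 control reads (chr2:140663401-140672000, 1.52-fold [1.21 to 1.92]). The island at Flrt2 was 7400 bp wide with 267 IP reads and 87 control reads (chr12:95690601-95698000, 1.93-fold [1.51 to 2.48]). Both ran from just upstream of the start into the gene. Tenm2 had the lowest fold, with 187 IP reads and 82 control reads over 6600 bp (chr11:37231401-37238000, 1.43-fold [1.10 to 1.88]). At Adgrl2 158 IP reads stood against 63 control reads (chr3:148985201-148991600, 1.58-fold [1.17 to 2.14]), and at Adgrl3 187 against 71 (chr5:81018601-81024600, 1.65-fold [1.25 to 2.21]). These 5 are the only start islands of the members wider than 5 kb. The remaining pair were narrower and of higher fold. The island of Adgrl1 was 3200 bp wide (chr8:83898401-83901600, 121 IP and 34 control reads, 2.24-fold [1.52 to 3.37]) and that of Flrt1 1800 bp (chr19:7165001-7166800, 66 IP and 17 control reads, 2.44-fold [1.41 to 4.43]). The Adgrl1 island also overlapped the noncoding gene Gm26721.

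The 7 start islands had a median width of 6400 bp and a median fold of 1.65, and the other 76 KCl islands of the members a median width of 1800 bp and a median fold of 2.57. Over the whole KCl list the medians were 2600 bp and 1.81-fold at gene starts, and 1400 bp and 2.67-fold elsewhere, so the direction is that of the list. With a minimum fold of 2, only Adgrl1 and Flrt1 kept a start island, 2 of 10 members. That is 28.6% of the 7 start islands, near the 33.5% of all KCl islands at gene starts that reached this fold. With the island's midpoint required within 2 kb of the start, 3 of 10 did, and no share of all genes was taken at that setting.

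**Figure D3:**
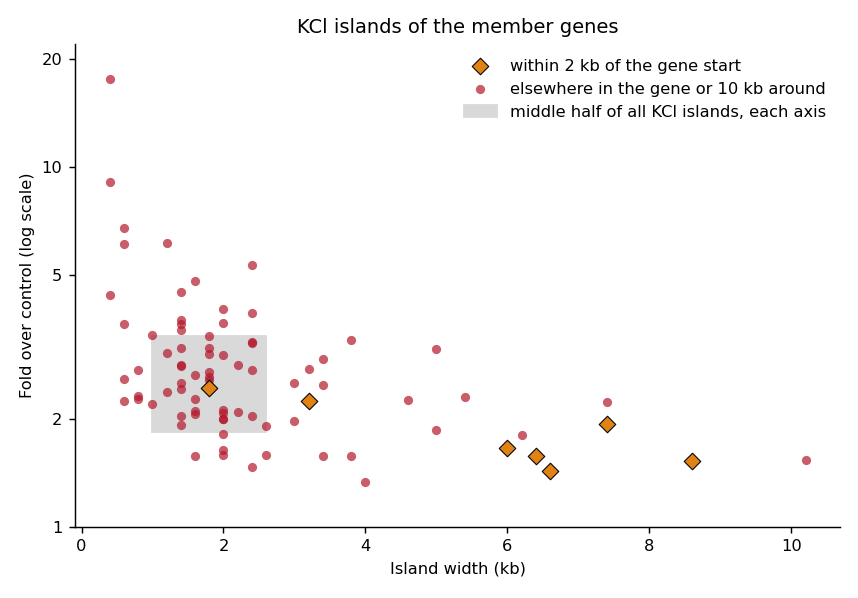
Fold over control (log scale) against width in kb for the 83 KCl islands of the members, with islands within 2 kb of a gene start as orange diamonds and all others as red points. The grey box spans the middle range of all KCl islands on each axis. Of the 7 start islands, 5 are wider than 5 kb and below 2-fold, and the folds above 6 all belong to islands of 1.2 kb or less.

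Islands were also set against the transcription starts that RefSeq lists, some of which lie inside the gene. RefSeq listed 12 starts for 9 members (Flrt1 had none). A KCl island touched the 250 bases before 7 of these starts, against 22.2% of 21263 listed starts of protein-coding genes. The 7 starts belong to 5 members, since 1 island (chr5:81018601-81024600) covered every listed start of Adgrl3. A basal island touched 0 of the 12. No basal share was taken over all listed starts, but only 0.302% of all protein-coding genes had a basal island within 2 kb of the gene start. Tenm4 showed both states within 1 gene. Its outer start had no KCl island within 16.4 kb, whereas the inner start lay under an island of 7400 bp with 209 IP reads and 59 control reads (chr7:96208601-96216000, 2.22-fold [1.66 to 3.02]). The 250 bases before each Tenm4 start are printed. With them are Adgrl1, the most CG-rich of the single-start promoters under an island, and Flrt3, a CG-poor one under an island. Tenm3 and Tenm2 are also printed, and their listed starts lie inside the gene with no island over them. Each runs 5′ to 3′ on the gene's strand (RefSeq, GRCm38.p6), with every CG dinucleotide in capitals.
Tenm4 outer start, chr7:96170994-96171243, plus strand: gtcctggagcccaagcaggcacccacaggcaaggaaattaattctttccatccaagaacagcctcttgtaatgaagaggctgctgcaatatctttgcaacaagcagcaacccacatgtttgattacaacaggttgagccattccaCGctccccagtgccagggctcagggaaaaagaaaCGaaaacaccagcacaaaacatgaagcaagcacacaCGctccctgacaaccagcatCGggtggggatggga
Tenm4 inner start, chr7:96211421-96211670, plus strand: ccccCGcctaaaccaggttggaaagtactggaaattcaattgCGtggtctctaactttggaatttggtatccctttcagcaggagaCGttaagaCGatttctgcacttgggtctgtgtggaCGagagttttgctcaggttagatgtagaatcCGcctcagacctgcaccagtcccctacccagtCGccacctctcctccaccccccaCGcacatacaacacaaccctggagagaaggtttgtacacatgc
Adgrl1, chr8:83899848-83900097, plus strand: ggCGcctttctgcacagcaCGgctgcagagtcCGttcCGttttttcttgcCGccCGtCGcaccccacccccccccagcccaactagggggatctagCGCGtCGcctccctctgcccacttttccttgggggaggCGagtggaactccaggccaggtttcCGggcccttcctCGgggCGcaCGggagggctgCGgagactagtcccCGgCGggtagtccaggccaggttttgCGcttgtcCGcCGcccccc
Flrt3, chr2:140671477-140671726, minus strand: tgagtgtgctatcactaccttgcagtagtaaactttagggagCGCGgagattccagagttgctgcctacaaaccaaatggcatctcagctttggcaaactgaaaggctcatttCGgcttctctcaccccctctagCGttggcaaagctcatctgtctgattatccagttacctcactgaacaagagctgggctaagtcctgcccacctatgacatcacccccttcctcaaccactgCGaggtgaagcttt
Tenm3, chr8:48674691-48674940, minus strand: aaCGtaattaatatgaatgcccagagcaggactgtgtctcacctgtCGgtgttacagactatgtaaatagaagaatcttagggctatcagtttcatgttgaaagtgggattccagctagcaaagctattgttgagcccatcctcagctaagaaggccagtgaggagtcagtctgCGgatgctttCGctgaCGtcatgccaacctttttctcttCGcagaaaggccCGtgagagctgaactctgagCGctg
Tenm2, chr11:36944242-36944491, minus strand: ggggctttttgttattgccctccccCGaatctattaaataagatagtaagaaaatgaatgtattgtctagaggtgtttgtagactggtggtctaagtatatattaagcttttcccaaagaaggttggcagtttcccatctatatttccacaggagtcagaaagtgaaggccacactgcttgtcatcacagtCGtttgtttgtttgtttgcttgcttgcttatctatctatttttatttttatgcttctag

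The CG count was 4 at the outer and 8 at the inner start of Tenm4, 21 at Adgrl1, 5 at Flrt3, 8 at Tenm3 and 2 at Tenm2. Relative to base composition (observed over expected CG), Adgrl1 had 0.720 and the 3 starts of Adgrl3 had 0.725 to 0.977, and KCl islands covered all 4. Among all listed starts with a ratio of 0.6 or more, 38.6% had a KCl island, against 8.91% of those under 0.6. Of the 8 member starts under 0.6, those of Flrt2 (0.587), Flrt3 (0.329) and the inner start of Tenm4 (0.491) were covered. The uncovered ones were the outer start of Tenm4 (0.251) and the listed starts of Tenm3 (0.568), Adgrl2 (0.391), Tenm2 (0.233) and Tenm1 (0.0). All but that of Tenm4 lie inside their genes.

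Motifs were sought on both strands of the 12 windows. The cyclic AMP response element TGACGTCA, the site of CREB factors, occurred once, 63 bases before the listed start of Tenm3 (it reads tgaCGtca in the Tenm3 sequence), where no island lay within 13.1 kb. It is held by 1.92% of all windows. The AP-1 site TGACTCA occurred in 0 of the 12 and in 4.06% of all windows. The E-box CACGTG lay 171 bases before the Flrt2 start and is in 6.63% of windows. The GC box GGGCGG occurred at Adgrl1 and at the 3 Adgrl3 starts and is in 42.6% of windows. A match describes these letters only.

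The listed starts of Tenm3, Tenm2, Adgrl2 and Tenm1 lie inside the genes, 65.4%, 23.8%, 19.9% and 17.1% of the way along from the outer start. The outer starts of Tenm2 and Adgrl2 lay under KCl islands. The windows of Tenm2 and Tenm1 end in ag (as do 5.64% of all windows), behind 20 bases of which 80% and 65% are C or T. Introns end in this form as well. The outermost of the 3 listed Adgrl3 starts, under a KCl island, also follows ag, with 40% C or T before it. Whether these are first exons was not tested. The nearest KCl island lay 2.24 kb from the listed Tenm2 start and 5.42 kb from the listed Tenm1 start.

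Along the outer RefSeq extent, Tenm2 and Tenm3 carried most of their islands in opposite parts. Tenm3 had 20 of its 26 KCl islands nearer the end than the start, and in 5 equal bins from the start it held 3, 2, 4, 9 and 7 of the 25 with a midpoint in the gene. Tenm2 had 14 of 19 nearer the start, and its bins held 4, 6, 6, 1 and 2. Taken from the listed inner starts instead, Tenm3 had 13 islands upstream and 13 downstream, and Tenm2 had 5 upstream and 14 downstream. Adgrl3 was more even, with 3, 4, 3, 2 and 2. All KCl islands in genes over 500 kb were close to level, with 21.5% in the bin at the start and 18.4% in the bin at the end. The single-gene intervals are wide. The share of Tenm3 in bin 4 was 36.0% [18.0 to 57.5], which includes the 20.2% of all such genes. Over all members 21.5% [13.1 to 32.2] of islands lay in the bin at the start. With the KCl list limited to 711 islands this share was 33.3% of the 3 islands left by p and 0% of the 2 left by fold.

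**Figure D4:**
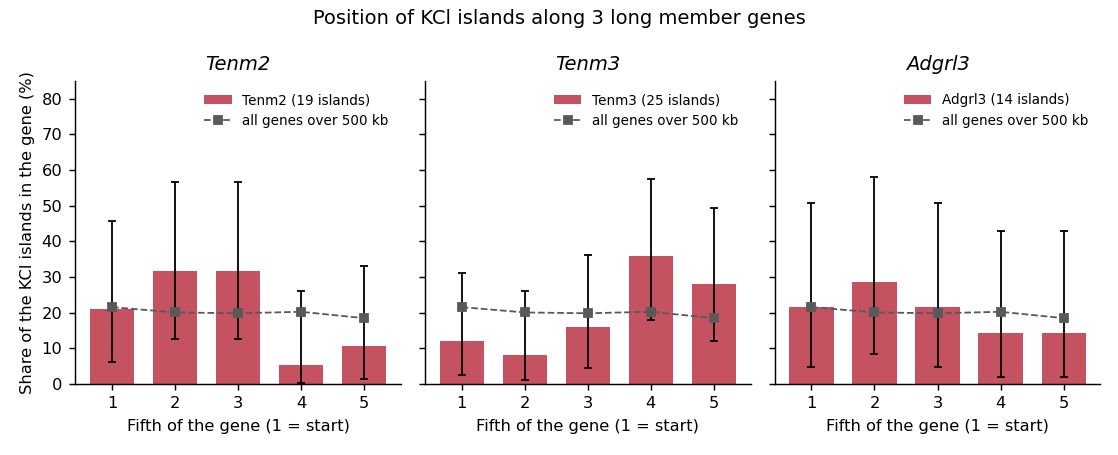
Share of KCl islands in 5 equal bins of the gene, from start (1) to end (5), for Tenm2, Tenm3 and Adgrl3 (red bars, with 95% exact binomial intervals), beside all genes over 500 kb (grey squares). Tenm3 leans to the end and Tenm2 to the start, and every interval includes the grey value of its bin.

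In Tenm3, 6 islands had midpoints between 758 and 833 kb from the start, upstream of the inner start that RefSeq lists, a stretch picked out after the values were seen. The largest by reads among these held 169 IP and 32 control reads (chr8:48763001-48766800, 3.32-fold [2.26 to 5.00]). The widest island of any member lay farther in, 10200 bp with 269 IP and 110 control reads but only 1.54-fold enriched [1.23 to 1.94] (chr8:48548201-48558400). Another covered the end of the gene and overlapped the noncoding gene Gm32923 (chr8:48221801-48225800, 89 IP and 42 control reads, 1.33-fold), and its interval [0.912 to 1.97] included 1. The longest stretch without an island between neighbours was 248 kb in Tenm3, 223 kb in Tenm2 and 119 kb in Adgrl3. Islands covered 4.62% of the Tenm3 body, 3.94% of Tenm2, 3.95% of Adgrl3, 2.22% of Tenm4 and 0.0888% of Tenm1.

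The largest fold of a member island was in Tenm2, where a 400 bp island held 28 IP reads and 1 control read (chr11:36204001-36204400), which is 17.6-fold with an interval of 2.91 to 719. Tenm3 had the next, 9.11-fold (chr8:48708001-48708400, 29 IP and 2 control reads [2.30 to 78.8]). Further islands of Tenm2 were 6.78-fold (chr11:37129001-37129600, 54 IP and 5 control reads [2.73 to 21.7]), 6.16-fold (chr11:36801601-36802800, 49 and 5 reads [2.47 to 19.8]) and 6.10-fold (chr11:36926601-36927200, 68 and 7 reads [2.81 to 15.7]). These 4 islands of Tenm2 stood in the top 10% of the KCl list by fold, as did 1 island each of Tenm3 and Adgrl3. That makes 6 of 83 member islands (7.23%). In Tenm4 the largest fold was 4.40 (chr7:96290601-96291000, 35 and 5 reads [1.72 to 14.4]). Adgrl2 reached 3.68 (chr3:148934401-148936400, 88 and 15 reads [2.12 to 6.86]) and Flrt2 3.05 (chr12:95774401-95775600, 68 and 14 reads [1.70 to 5.87]). Each of these lay inside the gene, and control counts this low leave the folds loosely bounded.

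The 14 KCl islands of Adgrl3 had the highest median fold of the members, 3.34 (range 1.65 to 5.34). Each had an interval above 1, as did every KCl island of Tenm1, Tenm4, Adgrl2 and the FLRT genes. Summed over islands, 1135 IP reads stood against 252 control reads, 2.83-fold [2.47 to 3.26]. The same sum was 2.17-fold for Tenm3 [1.98 to 2.38], 2.20-fold for Tenm2 [1.98 to 2.44], 2.28-fold for Tenm4 [1.90 to 2.75] and 2.19-fold for Adgrl2 [1.80 to 2.69]. Tenm1 was close to Adgrl3 at 2.79-fold [1.79 to 4.49], on 2 islands, of which 1 lies in Sh2d1a. The 1 in the Tenm1 body was 2.30-fold. Flrt1 had 2.44-fold [1.41 to 4.43], Flrt2 2.27-fold [1.89 to 2.73] and Adgrl1 1.92-fold [1.42 to 2.63]. Flrt3 had the lowest sum, 1.52-fold [1.21 to 1.92], from its start island alone. The interval of Adgrl3 lay above those of Tenm3, Tenm2 and Flrt3 and overlapped those of the other members. IP density within islands was alike over the members, 30.7 to 37.6 reads per kb. Of the 83 islands, 77 (92.8%) had an interval above 1, against 86.4% of the KCl list. The 6 that did not were 4 in Tenm3, 1 in Tenm2 and 1 in Adgrl1, its inner island (chr8:83914801-83917200, 1.47-fold [0.894 to 2.47]).

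All 3 basal islands of the members lay inside KCl islands, where 63.2% of basal islands overall overlapped a KCl island. In Adgrl3 the KCl island (chr5:81136001-81138400) held 119 IP and 14 control reads, and the basal island (chr5:81136001-81137600) 43 IP and 20 control reads. Both begin at the same 200 bp window, 117 kb inside the gene. The folds were 5.34 in KCl [3.06 to 10.1], within the top 10% of its list, and 2.44 in basal neurons [1.41 to 4.38]. In Tenm3 the KCl island (chr8:48755601-48759000) held 149 IP and 32 control reads, 2.92-fold [1.99 to 4.43], and the basal island of 400 bp within it (chr8:48757001-48757400) 25 IP and 9 control reads, 3.16-fold [1.43 to 7.69]. It belongs to the stretch of 6 islands described above. In Tenm2 the KCl island (chr11:37149801-37155200) held 208 IP and 57 control reads, 2.29-fold [1.70 to 3.13], and the basal island (chr11:37154001-37154400) 31 IP and 14 control reads, 2.52-fold [1.30 to 5.12]. Folds are scaled within each list and are not compared between conditions. The Tenm2 basal island did not pass an FDR of 1e-05, and the basal islands of Tenm3 and Adgrl3 did.

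Known partners and relatives of the families were described for 13 genes. These were the orphan relative Adgrl4, the Unc5 receptors of FLRT proteins (Unc5a, Unc5b, Unc5c, Unc5d), Robo1 and Fgfr1, which bind FLRT proteins, Cntn6, Nrxn2 and Nrxn3, which bind latrophilin 1, and the Shank scaffolds (Shank1, Shank2, Shank3), which bind latrophilin tails. KCl islands were found at 11 of 13 and basal islands at 2, namely Robo1 (2) and Shank2 (1). Robo1 is over 500 kb and Shank2 of 100 to 500 kb, and 22.9% and 5.95% of all genes in these classes had a basal island. Under 100 kb this share was 0.946%. By length class, 3 of 3 partners over 500 kb, 4 of 5 of 100 to 500 kb and 4 of 5 under 100 kb had a KCl island, against 98.7%, 80.3% and 33.5% of all genes of these classes. Nrxn3, a presynaptic organizer, had 18 KCl islands, 1.10 per 100 kb, above 56.8% of genes over 500 kb. Robo1 had 16, and Unc5d, the Flrt2 receptor of migrating cortical neurons, had 9, at 1.54 and 1.52 per 100 kb. Adgrl4, which is best known from blood vessels, and Shank3 had 0. At the gene start, 7 of 13 partners had a KCl island, against 23.3% of all genes and 53.7% of genes over 500 kb. Of the partners over 500 kb, Unc5d and Robo1 had one there and Nrxn3 did not. A basal island lay at the start of 0 partners, against 0.302% of all genes.

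The labelled cell type was looked at through marker genes, although islands do not measure expression. KCl islands lay within 2 kb of a gene end at 6 of 7 cortical excitatory neuron markers, 1 of 5 interneuron markers, 2 of 4 astrocyte markers, 2 of 4 oligodendrocyte lineage markers and 0 of 4 microglia markers, against 25.2% of all protein-coding genes. Basal islands lay there at 0 markers of any of these lists, against 0.411% of all genes. Islands held 1433200 IP and 400612 control reads in KCl and 142021 IP and 130865 control reads in basal neurons. Total library depth is not given in the sources used here. In such cultures an island at few cells with much binding and an island at many cells with little cannot be told apart.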

How the data were processed

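Chromatin immunoprecipitated with an antibody to BRG1/BRM was sequenced from KCl-treated and basal cortical neurons. Per the submitters' processing notes, BWA, SICER 1.0 and mm10 (GRCm38) were used. File names give 200 bp windows, 600 bp gaps and a 0.01 FDR threshold. Each list was called on 1 IP library, and the labels do not say which input was its control. The authors deposited per island the raw count of IP reads and of control reads, a p-value, an adjusted p-value (FDR) and the fold, which equals the IP to control ratio over a list-wide constant (1.59 in KCl, 0.880 in basal). Folds were used within a list only.

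Islands were placed with at least 1 bp of overlap on genes of RefSeq GRCm38.p6 (21887 protein-coding genes on the numbered chromosomes, X and Y), and strands and listed starts came from its promoter table, which held 9 of the 10 members. Density is islands per 100 kb of gene plus 10 kb to either side, beside classes of under 100 kb, 100 to 500 kb and over 500 kb. Fold intervals are 95% exact binomial intervals of the IP share of an island's reads, and count intervals are exact Poisson. They cover counting error only and not the choice of islands by enrichment. No member island had 0 control reads. Counting code, run in python 3.11.15 with pandas 2.3.3 and scipy 1.17.1, was tested on simulated data. Every basal island, every KCl island within 2 kb of a gene start or end, and the KCl island of largest fold with at least 20 IP reads were to be named, and further islands were chosen after their values were seen. Alternatives covered flank, FDR, fold, overlap, joining, start window and list length. The promoter windows, motifs, counts nearer the start or the end, top 10% by fold, X chromosome split and listed-start alternative were added after the data were seen. Members and lists were chosen with earlier results of these data known. 1 item of the partner list is not reported here.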

Additional observations from a re-analysis of the deposited data

How the results depend on the processing

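With 1 library per condition nothing could be left out. No paired analysis was possible because each condition has 1 IP library and the results come from no test. The counts over all members kept their size under a flank of 0 or 50 kb (82 and 93 KCl islands), an FDR of at most 1e-05 (72), joining of islands under 2 kb apart (82), start windows of 1 and 5 kb (7 members each) and other definitions of a shared island (3 of 3). Counting any listed RefSeq start, an alternative added after seeing the data, gave 5 members in KCl. The set also changed, since Tenm2, Adgrl2 and Flrt1 dropped out and Tenm4 came in. A minimum fold of 2 lowered the KCl density to 1.09 per 100 kb and the members with a start island to 2, since start islands have low folds. This filter kept 73.5% of member islands and 66.6% of the KCl list. No class densities were taken under it, so 1.09 cannot be set against the unfiltered ones above. Requiring the midpoint within 2 kb of the start gave 3, since wide islands have their midpoint inside the gene. Shortening the KCl list to 711 islands by p left 2 members with an island, 3 islands, a density of 0.0538, 0 start islands and 33.3% of islands in the bin at the start. Shortening by fold left 2 members, 2 islands, a density of 0.0359, 0 start islands and 0% in that bin. No shares or densities over all genes were taken for the shortened lists. Counts of basal islands rest on 3 regions, so a single call moves each by a large share. For counts of single genes, 82 alternatives stayed within 1.5 times and 29 did not.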
